A study of Mus musculus with 6 samples.

Results

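Chromatin accessibility was examined at 9 genes that mark tuft cells in the small intestine: Pou2f3, Gfi1b, Trpm5, Il25, Alox5ap, Ptgs1, Dclk1, Avil and Sh2d6. Accessible regions belonged to a gene when the authors' peak table gave them exactly that gene's name, which it does for a gene within 5 kb. Of 123510 peaks, 61914 carried a gene name and 21 carried the name of a tuft cell gene. These 21 peaks belonged to 6 of the 9 genes, and Gfi1b, Il25 and Ptgs1 had no peak of their name.

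The data came from ATAC-seq, which marks open chromatin by where a transposase inserts adaptors, and the study asked whether loss of the chromatin remodeler Smarcad1 alters accessibility in the gut epithelium. Here 3 libraries from WT mice were compared with 3 from Smarcad1-KO mice, all of strain C57BL/6. The nuclei were of whole small intestinal crypts, from 50000 cells per library. In the KO mice, both Smarcad1 alleles are floxed and Cre is expressed from the Villin promoter (Vil-Cre), which is active in the intestinal epithelium, so cells outside the epithelium in the preparation keep the gene. The mice were males per the study's methods, the labels name no treatment, and ages are not given in the sources used here.

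Tuft cells are rare chemosensory cells of the epithelium that use a taste-like pathway to sense succinate and other products of parasites and microbes. They need the transcription factor POU2F3, depolarise through the cation channel TRPM5, and release interleukin 25, leukotrienes and prostaglandins that reach immune cells. They make up a small share of the cells of a crypt, so in a bulk library fewer tuft cells and less open chromatin per tuft cell cannot be told apart.

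The 6 libraries held 4339306 to 16301164 reads in peaks. Values are log2 read counts scaled to the largest library, so that 1 read counted as 1.00 in WT3 and as 3.99 in KO3, the shallowest library. Summed over all peaks, the scaled reads still differed between libraries. They were lowest in KO2 (1.11e+07) and WT2 (1.14e+07) and highest in WT3 (1.63e+07) and KO3 (1.73e+07). Low or high values of these libraries at single peaks are to be read beside this. At the 21 peaks a library had 4 to 397 reads, with a median of 39. Counting error alone was therefore large at the smaller peaks. The table named 4 peaks for Smarcad1, but 0 peaks covered exons 12 to 14, which are deleted in the KO, so the deletion could not be checked here (KO minus WT over the 4 peaks -0.06 on the log2 scale, limma adjusted p = 1). Named peaks were found for 7 of 9 epithelial markers, among them Cdh1, Cdx1, Cdx2, Hnf4a and Krt20, while Epcam and Vil1 had none. Of 13 blood cell markers 6 had a peak: Ptprc (4 peaks), Itgam (3), Csf1r (2), and Lyz2, Cpa3 and Cd79b (1 each). Cd3e, Cd4, Cd8a and Spi1 were among those with none. All 9 markers of stroma and vessels had at least 1 peak.

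The DNA just before the gene starts is shown for the genes with a promoter in the RefSeq table (GRCm38.p6) that lay wholly inside a peak, with the internal Dclk1 start, which lay in none, for contrast. Of the 9 genes, 6 matched that table, and Pou2f3, Il25 and Alox5ap are named only. Each line is the 250 bases before the start, read along the gene, with CG pairs in capitals.
Dclk1, first start, chr3:55242114-55242363, plus strand: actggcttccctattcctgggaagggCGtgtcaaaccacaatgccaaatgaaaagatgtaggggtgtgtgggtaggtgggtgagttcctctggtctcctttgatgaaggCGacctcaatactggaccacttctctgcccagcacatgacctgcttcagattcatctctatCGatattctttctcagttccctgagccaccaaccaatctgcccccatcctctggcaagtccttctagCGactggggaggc
Dclk1, internal start, chr3:55461478-55461727, plus strand: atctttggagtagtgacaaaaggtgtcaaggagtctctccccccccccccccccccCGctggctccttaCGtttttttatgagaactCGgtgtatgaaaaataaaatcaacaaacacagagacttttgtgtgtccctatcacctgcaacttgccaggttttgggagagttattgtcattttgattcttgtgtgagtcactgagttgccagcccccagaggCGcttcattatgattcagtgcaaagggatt
Trpm5, chr7:143094643-143094892, minus strand: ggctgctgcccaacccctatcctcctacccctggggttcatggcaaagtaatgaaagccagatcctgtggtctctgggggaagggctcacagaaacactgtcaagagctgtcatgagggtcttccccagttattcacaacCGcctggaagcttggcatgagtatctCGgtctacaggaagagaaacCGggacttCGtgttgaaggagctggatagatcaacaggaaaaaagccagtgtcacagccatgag
Avil, chr10:127000459-127000708, plus strand: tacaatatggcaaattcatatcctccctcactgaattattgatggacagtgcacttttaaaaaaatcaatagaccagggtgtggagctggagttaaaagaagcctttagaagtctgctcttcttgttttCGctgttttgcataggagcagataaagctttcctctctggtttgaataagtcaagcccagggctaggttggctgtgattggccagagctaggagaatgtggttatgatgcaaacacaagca
These starts were poor in CG pairs. Both Dclk1 starts and the Trpm5 start held 4 each and the Avil start held 1, while the median over 32851 promoters of the table was 6. GC content of the 250 bases was 52.4% at the first Dclk1 start and 46.8% at the internal one. It was 52.8% at Trpm5 and 42% at Avil, against a median of 52.4%.

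The peak of the set with the most reads lay inside an intron of Pou2f3, and its central 300 bases follow, on the plus strand with CG pairs in capitals.
Pou2f3 intron, chr9:43150501-43150800, plus strand: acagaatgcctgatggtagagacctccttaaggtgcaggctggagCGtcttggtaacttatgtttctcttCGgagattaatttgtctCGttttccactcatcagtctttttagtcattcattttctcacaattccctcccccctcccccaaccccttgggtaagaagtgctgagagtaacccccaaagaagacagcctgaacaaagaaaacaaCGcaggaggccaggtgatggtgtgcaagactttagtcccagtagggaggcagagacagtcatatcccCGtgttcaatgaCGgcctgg
This stretch held 6 CG pairs. POU2F3 belongs to a family that binds the octamer word ATGCAAAT, and GFI1B binds words such as AAATCAC. The 2 words, which can share the letters AAAT, were searched on both strands as exact matches. In the central 300 bases of the 21 peaks, ATGCAAAT occurred in 0 peaks and AAATCAC in 1, and the shares over all peaks were 1.46% and 3.08%. In whole peaks the octamer was found in 2 of 21 (4.12% of all peaks), both of them over a gene start and both far from the peak centre, with the word in capitals below, read along the strand that carries it.
Dclk1 start peak, chr3:55241701-55241737, plus strand: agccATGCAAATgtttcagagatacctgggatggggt
Pou2f3 start peak, chr9:43205947-43206004, minus strand: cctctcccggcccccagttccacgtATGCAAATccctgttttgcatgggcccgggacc
The Dclk1 match lay 817 bp from the peak centre and the Pou2f3 match 350 bp. AAATCAC was in 3 whole peaks (9.72% of all peaks), in the same Pou2f3 intron peak as printed above but outside its central 300 bases, and in the Dclk1 intron peaks at chr3:55248301-55248750 and chr3:55506901-55508700. No match of either word overlapped a match of the other. The promoters of the 6 matched genes held neither word in the 300 bases listed, against 1.74% of all listed promoters for ATGCAAAT and 3.2% for AAATCAC. These matches describe letters only and say nothing about binding.

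The number of peaks varied with the gene. Dclk1, the longest of the 9 genes at 296.7 kb, had 8 peaks, Pou2f3 had 4, Trpm5 had 3, and Alox5ap, Avil and Sh2d6 had 2 each. Among all 18004 gene names in the table, 64.6% had at most 2 peaks, 81.6% at most 4 and 92.3% at most 8. Per 10 kb of gene the order changed, from 2.48 named peaks at Sh2d6, where 0 peaks overlapped the gene, to 0.27 at Dclk1. This ratio counts flanking peaks but not the length of the flanks, which raises it at short genes. By the GENCODE vM21 annotation, 11 of the 21 peaks lay wholly in introns and 5 overlapped a coding exon. A further 3 overlapped an untranslated region but no coding exon, and the 2 Sh2d6 peaks flanked the gene. A coding transcript start lay inside 5 of the 21 peaks, 1 each at Pou2f3, Trpm5, Alox5ap, Dclk1 and Avil. Of 30 coding transcript starts annotated for the 9 genes, 7 lay in a peak.

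The peaks at tuft cell gene starts were weak ones. Strength was compared between peaks only per length, as WT normalized reads per kb. The 5 start peaks had 66.1 to 83.8 reads per kb in WT, with a median of 80.3, whereas peaks within 1 kb of any annotated transcript start had a median of 126. The start peaks stood between the 4.61 and the 41.3 percentile of all peaks. The other 16 tuft cell gene peaks spanned 66.1 to 173 reads per kb with a median of 85.1, close to the median of 85.7 for all peaks farther from a start. These are descriptions with no test, since peaks of 1 gene share their libraries.

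**Figure D1:**
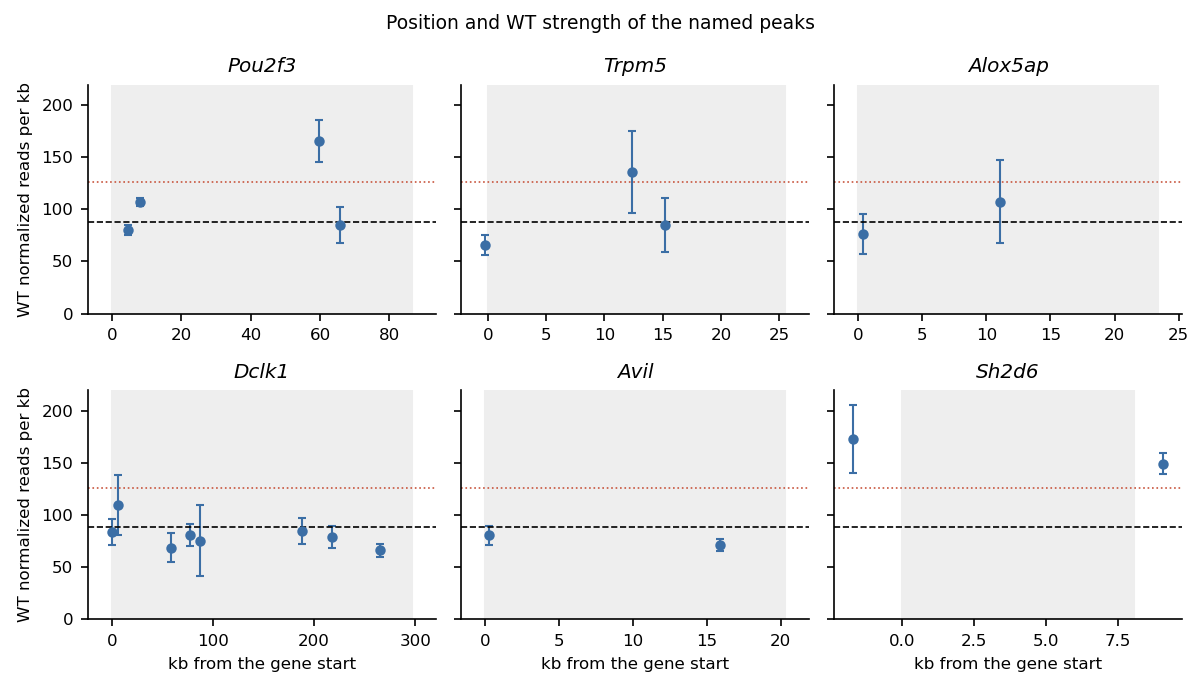
Position and WT strength of the 21 named peaks, in 1 panel per gene. The x axis is the distance of the peak centre from the gene start in kb (grey, the gene), the y axis WT normalized reads per kb (points, mean; bars, SD, n = 3), the dashed line the median of all peaks (88.2) and the dotted line that of peaks within 1 kb of a transcript start (126). The strongest peaks sit away from the starts, in Pou2f3, Trpm5 and on both sides of Sh2d6.

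Summed over its peaks, Sh2d6 was the most accessible gene per kb of peak in WT. It had 160 ± 18.1 normalized reads per kb (SD, n = 3), followed by Pou2f3 with 123 ± 4.94. The WT ranges of Sh2d6 (146 to 180) and Pou2f3 (120 to 129) did not overlap, and Pou2f3 lay above the next gene, Alox5ap (57.8 to 108), in each WT library. The remaining 4 genes did not differ beyond their spread: Alox5ap had 86.6 ± 26.0, Trpm5 86.3 ± 20.5, Avil 78.6 ± 6.09 and Dclk1 77.7 ± 9.53 normalized reads per kb (SD, n = 3 each), with overlapping WT ranges.

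The comparison of KO with WT asked whether loss of Smarcad1 altered accessibility at these peaks. No tuft cell gene peak passed the test. With limma on the log2 values of all peaks, 0 of 21 were called at an adjusted p below 0.05, as were 0.0% of all peaks, and the adjusted p was 1 for each of the 21. At an unadjusted p below 0.05 there were 0 of 21, against 2.28% of all peaks. With its own count test (edgeR), the study reports a set of sites changed in KO, mostly more accessible. The 0.0% called here holds for this limma fit, and other limma fits of the logged values called 0 to 272 of all peaks. There were 2 after median centring, 3 after quantile normalization, 30 without KO2 and 272 with the replicate number as a block. With 5 added before the log2 there were 0. The KO mean was higher at 10 of the 21 peaks and lower at 11, and the median difference was -0.08 on the log2 scale, against -0.02 over all peaks. Differences ran from -0.41 to 0.56, and the 95% intervals of the 21 differences reached down to -0.98 and up to 1.20. The standard error of the difference had a median of 0.29 over the 21 peaks and ran from 0.25 to 0.41, the last at the Alox5ap intron peak with the fewest reads.

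**Figure D2:**
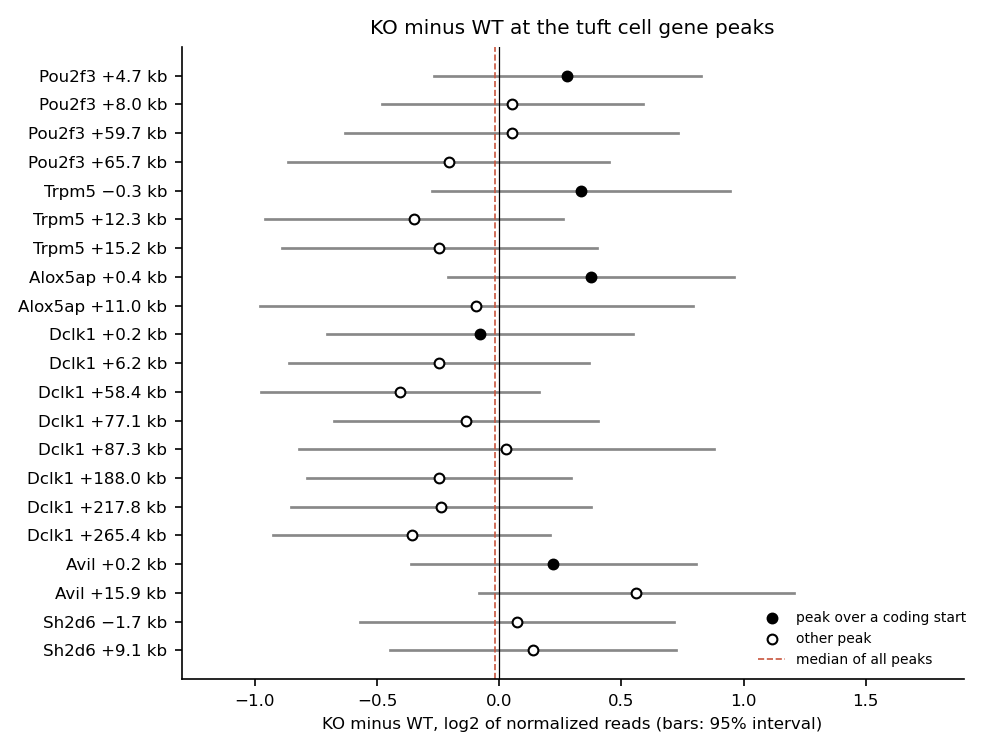
KO minus WT in log2 normalized reads at each of the 21 peaks, named by gene and by the distance of the peak centre from the gene start. Points are the limma estimates (filled, the 5 peaks over a coding start), bars their 95% intervals (n = 3 libraries per group) and the dashed line the median of all peaks (-0.02). All 21 intervals include 0, and 7 of the 8 Dclk1 points lie below it.

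All 3 KO values lay above all 3 WT values at 2 of the 21 peaks, against 2.70% of all peaks, and all lay below at 0 of 21, against 4.10%. Both peaks lost that separation when each library was centred on its median or quantile normalized, which left 1 of 21 with separate groups, a different one (in Dclk1, lower in KO), against 7.88% of all peaks in either direction after centring and 8.11% after quantile normalization. The 2 peaks were the Pou2f3 start peak and the Sh2d6 peak past the gene end, described next in turn with the other peaks of the transcription factors, the channel, the signalling enzymes and the structural genes.

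Pou2f3, the master transcription factor of the tuft cell lineage, lies on chr9:43123939-43210369 on the minus strand. Its start peak (chr9:43204951-43206300), which overlaps a coding exon, covers the coding start at 43205755. The outermost annotated start of the gene, 43210369, lay 4.07 kb from the nearest peak. Log2 normalized reads in the start peak were 6.831, 6.786 and 6.658 in WT1 to WT3 and 7.055, 7.059 and 6.997 in KO1 to KO3. Every KO library was higher than every WT library. The mean was 6.76 ± 0.09 for the WT mice and 7.04 ± 0.03 for the KO mice (SD, n = 3 each), a difference of 0.28 with a 95% interval from -0.27 to 0.82 (limma, unadjusted p = 0.293, adjusted p = 1).

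The Pou2f3 intron peak whose centre is printed above (chr9:43149601-43151700) had the most normalized reads of the 21 and, per kb, 166 ± 20.0 in WT (SD, n = 3), at the 89.2 percentile of all peaks. Log2 normalized reads there were 8.32, 8.36 and 8.63 in WT and 8.70, 8.04 and 8.72 in KO. KO2 was the lowest of the 6 libraries and KO3 the highest, as in the sum over all peaks, so the groups overlapped. The difference was 0.05 (95% interval -0.63 to 0.73, limma adjusted p = 1), and it turned negative without WT1, KO1 or KO3 (lowest -0.07). The 2 other Pou2f3 peaks, both in introns, differed by -0.21 and 0.05. Summed over the 4 peaks, Pou2f3 differed by 0.08 (95% interval -0.47 to 0.63, limma adjusted p = 1).

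Gfi1b, a zinc finger repressor found in tuft cells and in blood lineages, had no peak of its name and none over its body (chr2:28609450-28621982, minus strand). The nearest peak, chr2:28607401-28608150, lay 1.3 kb past the gene end under another name and was among the weakest in the table, with 63.5 WT normalized reads per kb (2.30 percentile). Before the start lay 2 peaks without a name, at 6.87 kb and 10.3 kb. The nearer one, chr2:28628851-28630650, had 206 WT normalized reads per kb, at the 93.4 percentile. Its log2 values were 8.28, 8.39 and 8.86 in WT and 8.71, 8.21 and 8.97 in KO, so the groups overlapped, and KO minus WT was 0.12 (limma adjusted p = 1). The farther one, chr2:28632301-28633500, differed by -0.10.

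Trpm5 encodes the cation channel at the end of the taste-like cascade and lies on chr7:143069153-143094642 on the minus strand. Its start peak (chr7:143093851-143095950), which contains the Trpm5 sequence printed above, was, with an intron peak of Dclk1, the weakest of the 21 per kb, at 66.1 ± 9.50 WT normalized reads per kb (SD, n = 3; 4.61 percentile). The log2 values were 6.995, 7.338 and 6.989 in WT and 7.679, 7.564 and 7.084 in KO. KO1 and KO2 were above every WT library and KO3 was not. The difference was 0.33 (95% interval -0.27 to 0.94, limma adjusted p = 1), from 0.22 without KO1 to 0.51 without KO3.

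Inside Trpm5 the differences had the opposite sign. The strongest Trpm5 peak, over a coding exon at chr7:143081851-143082750, had 136 ± 39.1 WT normalized reads per kb (SD, n = 3). In log2 normalized reads the libraries gave 6.50, 7.32 and 6.87 in WT and 6.33, 6.73 and 6.58 in KO, with KO1 the lowest and WT2 the highest library. The difference was -0.35 (95% interval -0.96 to 0.26, limma adjusted p = 1), but -0.14 without WT2 and -0.55 without WT1. The third Trpm5 peak (chr7:143078401-143080500) differed by -0.25. Whether the start and the inner peaks differ from each other was not tested. Summed, Trpm5 differed by -0.06 (95% interval -0.61 to 0.50), and this sign turned without WT2 (0.13), without KO3 (0.04) and with voom on the recovered reads (0.02). A strong peak named for Cd81 (chr7:143067901-143071050) overlaps the 3′ end of Trpm5, with 246 WT normalized reads per kb and a difference of 0.02, and is not among the 21.

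Il25, the cytokine by which tuft cells call on innate lymphoid cells, had no peak over its 3.14 kb (chr14:54932695-54935837, plus strand). The nearest peak, named Cmtm5 (chr14:54939301-54939900), lay 3.46 kb past its end with 81.8 WT normalized reads per kb. Its log2 values were 5.67, 5.46 and 5.70 in WT and 5.98, 5.84 and 5.90 in KO. All KO values were above all WT values there, with a difference of 0.30 (95% interval -0.22 to 0.81, limma unadjusted p = 0.238, adjusted p = 1).

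Alox5ap, the activating protein that 5-lipoxygenase needs to start leukotriene synthesis, lies on chr5:149264767-149288153 on the plus strand and is also used by blood cells. Its start peak (chr5:149264851-149265450), which covers a coding start at 149265347 and begins 0.084 kb past the outermost annotated start, rested on 17 to 40 reads per library. The log2 values were 5.62, 5.79 and 5.04 in WT and 5.65, 5.84 and 6.08 in KO. WT3 stood below the other libraries and the groups overlapped. The difference was 0.38 (95% interval -0.21 to 0.96, limma adjusted p = 1), and 0.16 without WT3.

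The intron peak of Alox5ap (chr5:149275651-149275950) had 107 ± 39.9 WT normalized reads per kb (SD, n = 3) but only 4 to 26 reads per library. Log2 values read 5.14, 5.40 and 4.25 in WT and 5.29, 5.22 and 4.00 in KO, with both number 3 libraries low. The difference of -0.09 (95% interval -0.98 to 0.79, limma adjusted p = 1) changed sign with quantile normalization (0.16), with voom (0.36) and without WT1, WT2 or KO3, and has no settled direction. Summed, Alox5ap differed by 0.24 (95% interval -0.34 to 0.83), which became -0.02 without WT3. Ptgs1, the cyclooxygenase that feeds prostaglandin synthesis, had no peak within 5 kb of its gene (chr2:36230426-36252272, plus strand). The nearest lay 24.0 kb away.

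Dclk1, a microtubule-associated kinase and the usual marker of tuft cells, lies on chr3:55242364-55539068 on the plus strand. The peak over its first start (chr3:55241701-55243350) had log2 values of 7.31, 6.88 and 7.11 in WT and 7.27, 6.54 and 7.24 in KO. KO2 was the lowest library and the groups overlapped. The difference was -0.08 (95% interval -0.71 to 0.55, limma adjusted p = 1), and it was positive without WT1 (0.03) and without KO2 (0.16). The strongest Dclk1 peak per kb, in the intron at chr3:55248301-55248750, had 109 ± 28.8 WT normalized reads per kb (SD, n = 3). Its log2 values were 5.97, 5.58 and 5.21 in WT and 5.65, 5.38 and 5.00 in KO, a difference of -0.25 (95% interval -0.86 to 0.37, limma adjusted p = 1) that ranged from -0.44 without WT3 to -0.05 without WT1. WT1 was the highest library and KO3 the lowest, and the groups overlapped.

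Across Dclk1, 7 of the 8 peaks had a lower mean in KO, with differences from -0.41 to 0.03. The peaks share the same 6 libraries, so this count is no test. The peak with the lowest estimate (chr3:55300201-55301250, chosen after its values were seen) had log2 values of 6.22, 5.83 and 6.41 in WT and 5.45, 5.81 and 6.00 in KO. WT2 lay among the KO libraries, and the interval ran from -0.97 to 0.16 (limma unadjusted p = 0.149, adjusted p = 1). It is the peak whose groups separated after median centring or quantile normalization. The start at 55461728 used by shorter Dclk1 transcripts lay 1.18 kb from the nearest peak (chr3:55459801-55460550), which differed by -0.24. Summed over the 8 peaks, Dclk1 read 9.34, 8.99 and 9.21 in WT and 9.07, 8.89 and 8.97 in KO on the log2 scale. The groups overlapped through WT2 only. The difference was -0.20 (95% interval -0.72 to 0.32, limma adjusted p = 1), and it stayed negative without each library in turn (-0.30 to -0.12).

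Avil encodes advillin, an actin-binding protein that tuft cells share with sensory neurons, and lies on chr10:127000709-127020994 on the plus strand. The peak over its start (chr10:127000051-127001850), which contains the Avil sequence printed above, was also its strongest, with 80.4 ± 8.87 WT normalized reads per kb (SD, n = 3). The log2 values were 7.14, 7.03 and 7.34 in WT and 7.23, 7.33 and 7.61 in KO. WT3 lay above KO1 and KO2, so the groups overlapped. The difference was 0.22 (95% interval -0.36 to 0.80, limma adjusted p = 1), and 0.11 without KO3. The inner Avil peak (chr10:127016401-127016850, over a coding exon and overlapping Tsfm as well) had the largest difference of the 21 and is named here because of its value. The libraries read 4.97, 5.13 and 4.91 in WT and 5.03, 6.07 and 5.58 in KO, with KO2 high and KO1 among the WT libraries. The difference was 0.56 (95% interval -0.08 to 1.20, limma unadjusted p = 0.0836, adjusted p = 1). Summed, Avil differed by 0.30 (95% interval -0.17 to 0.76, limma adjusted p = 1), and the estimate stayed positive without each library in turn (0.21 to 0.42).

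Sh2d6, an SH2-domain adaptor protein, lies on chr6:72513641-72521707 on the minus strand, between its 2 peaks. The deposited table calls the peak past its end upstream and the one before its start downstream, which is the reverse of the gene's strand. The peak before the start (chr6:72522901-72523950), 1.19 kb from it, had the highest WT density of the 21, with 173 ± 32.9 normalized reads per kb (SD, n = 3; 90.2 percentile). Its log2 values were 7.22, 7.48 and 7.77 in WT and 7.57, 7.19 and 7.93 in KO. KO2 was the lowest and KO3 the highest library, as in the sum over all peaks. The difference was 0.07 (95% interval -0.57 to 0.72, limma adjusted p = 1), and it turned negative without WT1 (-0.06) or KO3 (-0.11).

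The Sh2d6 peak past the gene end (chr6:72511951-72513300) had log2 values of 7.66, 7.55 and 7.75 in WT and 7.80, 7.82 and 7.75 in KO. The groups did not overlap, but WT3 and KO3 differed only in the third decimal. The difference was 0.14 (95% interval -0.45 to 0.72, limma adjusted p = 1), and 0.09 without WT2. Summed, Sh2d6 differed by 0.11 (95% interval -0.39 to 0.61, limma adjusted p = 1).

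**Figure D3:**
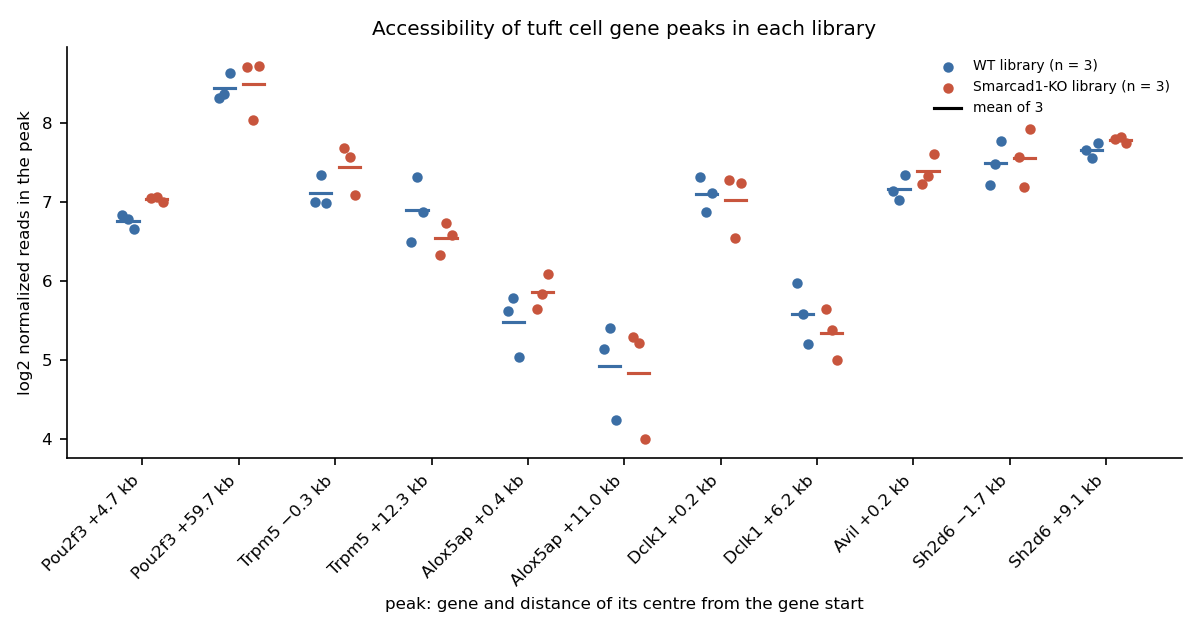
Log2 normalized reads (y axis) in each WT and KO library (points) at 11 of the 21 peaks, those strongest in WT, over or nearest a start, or with separate groups, with the mean of each group as a line (n = 3 each). The x axis names each peak by its gene and the distance of its centre from the gene start. The groups separate only at the Pou2f3 start peak (6.66 to 6.83 in WT, 6.997 to 7.059 in KO) and the Sh2d6 peak past the gene end.

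Per gene, limma on the summed values called 0 of the 6 genes, as it did 0.0% of all 18004 names, and 0 of 6 had an unadjusted p below 0.05, against 0.761% of all. Groups separated at 0 of the 6 genes in either direction, against 2.07% of all names for KO higher and 1.27% for KO lower. The KO mean was higher for 4 genes and lower for 2, with a median difference of 0.10 on the log2 scale, against 0.02 over all names. Summed over all 21 peaks, the normalized reads per library were 2202 to 2256 in WT and 2120 to 2338 in KO. As a share of a library's reads in peaks the spread was wider, from 0.0138% to 0.0199% in WT and from 0.0135% to 0.0192% in KO. Over the 12 blood marker peaks the normalized reads were 660 to 741 in WT and 698 to 734 in KO, and the part of blood cells in the values at Alox5ap and Gfi1b was not tested.

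At other genes of the tuft cell programme no change passed the test either. Of 50 such genes, covering taste signalling, succinate and cytokine receptors, eicosanoid synthesis, SH2 adaptors and kinases, 38 had a named peak and together had 160 peaks (Krt18 is on the list of epithelial markers as well). None of the 38 genes was called by limma and none had an unadjusted p below 0.05, against 0.0% and 0.761% of all names. The mean in KO was higher for 19 and lower for 19, against 9958 higher and 8046 lower among all 18004 names. Their median difference was 0.01 on the log2 scale, against 0.02 over all names. Per peak, 0 of the 160 were called, as were 0.0% of all peaks. At an unadjusted p below 0.05 there were 5 lower and 0 higher, against 1.37% and 0.909% of all peaks. These counts moved with the processing, to 6 lower and 0 higher after median centring, 5 and 2 after quantile normalization and 3 and 2 with voom. With a minimum mean of 50, which kept 106 of the 160 peaks, they were 0 and 0. The smallest p-values were at Alox5, the 5-lipoxygenase itself (-0.39, 95% interval -1.01 to 0.24), and Rgs13, a regulator of G protein signalling (-0.25, -0.74 to 0.23), among genes lower in KO. Among genes with a higher mean they were at Hpgds, a prostaglandin D synthase (0.33, -0.32 to 0.97), and Lrmp (0.29, -0.32 to 0.89), each with a limma adjusted p of 1. Genes of this list without a named peak included Sucnr1, the succinate receptor, and Chat, which makes acetylcholine.

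Set beside other crypt cell types, peaks of the tuft cell genes had a lower median WT density than those of goblet and stem cell genes. The median over peaks was 83.8 WT normalized reads per kb for the tuft cell genes, 92.3 for the 50 other tuft cell genes, 76.4 for enteroendocrine genes (6 peaks at 3 of 9 genes), 130 for goblet genes (16 peaks at 7 of 9) and 106 for crypt stem cell genes (40 peaks at 6 of 7), against 88.2 over all peaks. The number of cells of each type differs in a crypt, so these medians describe the mixture. The KO mean was higher at 10 of 21 tuft cell gene peaks and 71 of 160 peaks of the other tuft cell genes. It was higher at 6 of 6 enteroendocrine peaks, 14 of 16 goblet peaks and 30 of 40 stem cell gene peaks. Over all peaks it was higher at 57876 of 123510, and over peaks with a gene name at 31767 of 61914. The shares of the enteroendocrine, goblet and stem cell lists lay above both of these. None of these lists had a peak called by limma, and differences between the lists were not tested.

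**Figure D4:**
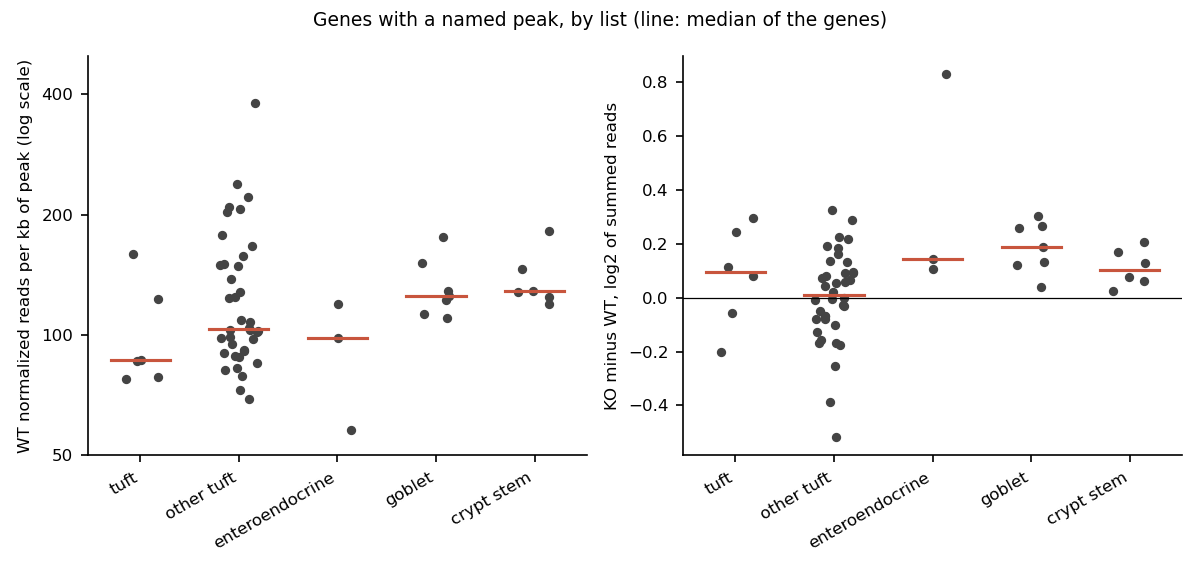
Genes with a named peak (points) in the tuft cell, other tuft cell, enteroendocrine, goblet and crypt stem cell lists, with the median of each list as a line. The left y axis is WT normalized reads per kb of peak on a log scale, and the right y axis is KO minus WT in log2 summed reads. The 6 tuft cell genes lie between 77.7 and 160 reads per kb and between -0.20 and 0.30 on the log2 scale.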

How the data were processed

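ATAC-seq libraries of small intestinal crypt nuclei (3 WT, 3 Smarcad1-KO, grouped by their titles) were used. Per the submitters' processing notes and the study's methods, the authors trimmed reads with Trim Galore 0.4.1, mapped them to GRCm38 with Bowtie2 2.2.5, removed duplicates and called 1 set of MACS peaks in SeqMonk. Which libraries were pooled for the peak calls, and whether reads were shifted for the transposase, are not given in the sources used here. The values the authors deposited are log2 read counts per peak, scaled to the largest library. A smaller deposited table of peaks past the authors' edgeR threshold, with their p-values, was not used.

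On the linear scale 100% of values were whole multiples (within 0.1 of a read) of the value of 1 read in that library, which gave back whole reads. Differences were tested two-sided with limma 3.58.1 (R 4.3.3; lmFit, eBayes with trend) over all 123510 peaks and, after summing the linear values of each name's peaks, over all 18004 names, in place of the authors' count test because the values are logged. P-values were adjusted by Benjamini-Hochberg and called below 0.05. P-values set each difference against the spread between libraries, with variances moderated over all peaks or all names. Each library was taken as 1 mouse, which the labels do not state. The fit was tested on simulated data. Gene positions came from GENCODE vM21 and sequences from RefSeq, both on GRCm38.

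All 9 genes are named. Values per library are given for each gene's strongest peak per kb in WT, its peak over or nearest a start, and peaks whose groups do not overlap. Of the other tuft cell genes, the 2 with the smallest p in each direction are named. The members and lists were chosen with earlier results of these data known. Alternatives were median centring, quantile normalization, voom with TMM scaling on the recovered reads, 5 added before the log2, a minimum mean of 50, the replicate number as a block, each library left out, a threshold of 0.1, the mean of a gene's log2 values, other rules for peak names and whole peaks in the word search. Duplicates were removed by position without molecular identifiers, so read counts need not equal counts of molecules.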

Additional observations from a re-analysis of the deposited data

How the results depend on the processing

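The counts of called tuft cell gene peaks and genes, and of called peaks and genes of the other tuft cell list, were 0 under each alternative run. At the threshold of the main test, runs without a block called few features anywhere. The most were 30 of 123510 peaks and 2 of 18004 names, both without KO2. With the replicate block and quantile normalization together, 219 of all peaks and 34 of all names were called. With so few calls anywhere, the counts of 0 do not set these lists apart from other peaks or genes. Adjusted p-values at the named peaks ran from 0.986 to 1, and at the genes from 0.955 to 1, in the alternatives without a block. The count of peaks whose groups separate was 2 as reported, 1 with median centring (7.88% of all peaks) and 1 with quantile normalization (8.11% of all peaks). Searching whole peaks gave ATGCAAAT in 2 and AAATCAC in 3 peaks, in place of 0 and 1 in the central 300 bases, because more bases were searched. Peaks that overlap the annotated gene numbered 20, and those within 5 kb 24, in place of 21. A minimum mean of 50 left 15 of the 21 peaks.

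The intron peak of Alox5ap at 149275651 changed sign with quantile normalization (0.1645), with voom (0.36) and with the replicate block and quantile normalization together (0.1645), and summed Trpm5 did so with voom (0.0196). The cause was not tested. Leaving out 1 library at a time, 88 of 102 differences kept their sign and 14 did not. The ranges of those that turned were -0.44 to 0.33 for the Alox5ap intron peak, -0.0248 to 0.43 for summed Alox5ap, -0.21 to 0.16 for the Dclk1 start peak, -0.0667 to 0.27 for the Pou2f3 intron peak, -0.0133 to 0.24 for summed Pou2f3, -0.11 to 0.26 for the Sh2d6 peak at 72522901 and -0.16 to 0.13 for summed Trpm5. Without WT2 the median difference over all peaks moved to -0.14 and without KO3 to -0.11, while it moved to 0.08 without WT3 and to 0.08 without KO2. WT density ranged from 75.8 to 101 reads per kb at Alox5ap, the widest range of the 6 genes.

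Same-numbered WT and KO libraries deviated together for numbers 2 and 3 (correlations over peaks of 0.42 and 0.41) but not for number 1 (0.04), and the labels do not say what a number shares, so the numbers were not taken as pairs. With the replicate block, limma called 0 of the 21 peaks and 0 of the 6 genes, with lowest adjusted p-values of 0.709 and 0.829, while it called 272 of all peaks and 37 of all names.

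Each peak had 4 to 397 reads per library, with 3 libraries per group. The lowest and highest interval bounds at the peaks were -0.98 and 1.20 on the log2 scale.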
